A study of Mus musculus with 208 samples.

Results

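The genes described here are the 4 genes that encode the subunits of AMPA receptors (Gria1 to Gria4) and the 5 that encode the subunits of kainate receptors (Grik1 to Grik5). They were taken by symbol, 9 of the 46403 gene rows in each region, and all 9 were tested in every region. Nuclear RNA of neuronal (NeuN+) nuclei sorted from punches of 4 brain regions, namely the striatum, the hippocampus, the prefrontal cortex (PFC) and the hypothalamus, of adult wild-type C57BL/6NTac mice was sequenced, 1 animal and 1 region per library, 208 libraries in all with 71 replicate labels. A label such as 12-0 carried the same condition and sex in every region it occurred in and is read here as 1 animal. Its first number defines 18 sets of animals, and the labels do not say what the number marks. MOR mice came from dams given morphine by minipump at 10 mg/kg per day, were given morphine at 10 mg/kg as pups and were reared by surrogate dams. SAL mice received saline in its place. As adults each mouse was injected with lipopolysaccharide (LPS, a bacterial endotoxin) or saline, and tissue was taken 2 h later, so that each group is named by perinatal exposure first and adult challenge second. The groups SAL-SAL, SAL-LPS, MOR-SAL and MOR-LPS held 11, 12, 14 and 14 hypothalamic libraries, 13, 14, 12 and 16 of the hippocampus, 10, 10, 12 and 16 of the PFC, and 13, 15, 8 and 18 of the striatum, of which 107 were from females and 101 from males.

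AMPA and kainate receptors are tetrameric glutamate-gated cation channels. AMPA receptors carry most of the fast excitatory current in the brain, and the subunit GluA2, encoded by Gria2, makes the channel nearly impermeable to calcium once its messenger RNA has been edited by the deaminase that Adarb1 encodes. Kainate receptors act on both sides of the synapse, and GluK4 and GluK5, the high-affinity subunits encoded by Grik4 and Grik5, form channels only together with GluK1, GluK2 or GluK3.

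The stretch of coding sequence that sets calcium permeability shows how alike these genes are. For each gene, 45 bases of the coding strand around the pore loop are given here from mm10 with GENCODE gene models, with the codon that lines up with the editing site of Gria2 in capitals. In Grik1, Grik2 and Grik3 the window crosses an intron, so its genomic interval is longer than 45 bases.
Gria1: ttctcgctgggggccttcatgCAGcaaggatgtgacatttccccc
Gria2: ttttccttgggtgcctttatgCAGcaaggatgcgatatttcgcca
Gria3: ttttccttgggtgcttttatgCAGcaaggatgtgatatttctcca
Gria4: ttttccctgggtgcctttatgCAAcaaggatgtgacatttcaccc
Grik1: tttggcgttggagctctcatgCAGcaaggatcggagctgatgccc
Grik2: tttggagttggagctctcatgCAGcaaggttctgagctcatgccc
Grik3: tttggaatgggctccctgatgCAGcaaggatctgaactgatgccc
Grik4: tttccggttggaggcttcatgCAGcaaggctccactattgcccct
Grik5: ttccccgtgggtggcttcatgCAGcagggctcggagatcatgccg
All 9 genes carry a genomic glutamine codon there, CAG in 8 genes and CAA in Gria4. Gria2 and Gria3 shared 93.3% of the bases of the window and Grik1 and Grik2 shared 91.1%, whereas the high-affinity pair Grik4 and Grik5 shared 68.9% and the least alike pair, Grik3 and Grik4, 53.3%. The windows lie at chr11:57243073-57243117 on the plus strand (Gria1), chr3:80706890-80706934 on the minus strand (Gria2), chrX:41610244-41610288 on the plus strand (Gria3) and chr9:4464116-4464160 on the minus strand (Gria4). Those of the kainate genes lie at chr16:87936099-87940565 on the minus strand (Grik1), chr10:49240780-49244352 on the minus strand (Grik2), chr4:125691186-125693978 on the plus strand (Grik3), chr9:42547602-42547646 on the minus strand (Grik4) and chr7:25022476-25022520 on the minus strand (Grik5). Counts per gene carry no base calls, so editing itself was not measured.

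What a count covers differed between the tables. Of the 12485 genes whose hypothalamic median reached 5 CPM (a gene's counts scaled to a common library total), 1480 were at 0 throughout the libraries of hippocampus, PFC and striatum. Among such genes with a position in the gene models, 1071 of the 1140 (93.9%) that share their whole span with another gene on either strand were at 0 in every hippocampal library, against 40 of the 10567 genes (0.379%) with a stretch of their own. Genes of 100 kb or more were higher outside the hypothalamus, by a median log2 difference of 1.06 (hippocampus), 0.93 (PFC) and 1.20 (striatum), and genes under 10 kb were lower, by -0.62, -0.58 and -1.18. The hypothalamic values therefore behave as counts over exons and the others as counts over whole genes with shared stretches left out. Each subunit gene is long, from 62.5 kb (Grik5) to 676.8 kb (Grik2) of span shared with no other gene, and has 5.168 kb (Grik5) to 15.548 kb (Gria2) of exon. Levels are therefore ordered among hippocampus, PFC and striatum, and the hypothalamic levels stand apart. All comparisons between conditions lie within 1 region and are not touched by this difference.

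Total counts ran from 7673 to 35077048 per library in the hypothalamus, 227025 to 24071488 in the hippocampus, 3056648 to 21988203 in the PFC and 5954700 to 92945090 in the striatum. Of the 51 hypothalamic libraries, 3 fell under 0.5 of the median depth of their region, as did 2 of the hippocampus, 3 of the PFC and 0 of the striatum. The neuronal marker Rbfox3, which encodes NeuN, was above 0 in every library. Markers of the own region summed to under 0.25 of the region's median in 17 hypothalamic, 5 hippocampal, 14 PFC and 7 striatal libraries. The label PFC sits beside high striatal markers, since the summed level of the striatal list had a median of 1046 CPM in the PFC and 1039 CPM in the striatum. In 3 hypothalamic, 4 hippocampal and 2 PFC libraries the Y-linked genes went against the labelled sex. A count of 0 occurred for Grik1 in 4 libraries and for Grik3 and Grik4 in 1 each, of which 0 of 7673 counts allows up to 391 CPM and 0 of 160755 up to 18.7 CPM in the hypothalamus, and 0 of 227025 up to 13.2 CPM for Grik1 in the hippocampus. The remaining 0, of Grik1 in PFC library MOR-LPS 8-1, came from 3056648 counts and allows up to 0.981 CPM.

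Gria1, which encodes the GluA1 subunit of forebrain principal neurons, was the most abundant subunit by CPM in hippocampus, PFC and striatum. Its lowest, median and highest values were 1327, 2989.8 and 5087 CPM for the hippocampus (n = 55), 1146, 2119 and 3784 CPM for the PFC (n = 48), and 542, 1677 and 3393 CPM for the striatum (n = 54). The hippocampus was high and the striatum low, yet the ranges of all 3 regions overlapped, as they did for each of the 9 genes. The means of neighbouring regions, 3006 ± 872 (SD), 2197 ± 633 and 1748 ± 717 CPM, lay closer than the larger of their SDs. Within animals with libraries of both regions, Gria1 was higher in hippocampus than in striatum in 37 of 42 animals (median log2 difference 0.82) and higher in hippocampus than in PFC in 27 of 36 (0.44).

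Gria2 was also highest in the hippocampus, at 938 ± 226 CPM, followed by the striatum (727 ± 216) and the PFC (573 ± 196). Its hippocampal level exceeded the PFC level in 33 of 36 animals and the striatal level in 34 of 42. Gria3, on the X chromosome, was nearly level, at 629.9 ± 124, 575 ± 165 and 619 ± 123 CPM in hippocampus, PFC and striatum, and the hippocampus was above the PFC in 22 of 36 animals and above the striatum in 22 of 42. Gria4, known from fast-spiking interneurons and the thalamus, ran the other way. It stood at 559.9 ± 136 CPM in the striatum, 374 ± 101 in the PFC and 313 ± 139 in the hippocampus, with the striatum above the PFC in 32 of 35 animals and above the hippocampus in 36 of 42. Beside this, the summed thalamic marker list was also highest in the striatal libraries (median 3552 CPM), and its part in the Gria4 level was not tested.

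Among the kainate genes, Grik2, which encodes the widespread subunit GluK2, was highest in the striatum (1048 ± 249 CPM) and equal in hippocampus (625 ± 162) and PFC (625 ± 167). The striatum led in 38 of 42 animals against the hippocampus and in 33 of 35 against the PFC, with median log2 differences of -0.76 (hippocampus minus striatum) and -0.79 (PFC minus striatum). Grik3 was highest in the PFC, where its lowest, median and highest values were 143, 620.5 and 1252 CPM. In the striatum they were 121, 326 and 585 CPM, and in the hippocampus 68.2, 252 and 599.9 CPM. The PFC exceeded the hippocampus in 32 of 36 animals (median log2 hippocampus minus PFC -1.29) and the striatum in 29 of 35 (PFC minus striatum 1.08).

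Grik4, known for its strong expression in the CA3 field, was highest in the hippocampus, at 475 ± 196 CPM against 282 ± 137 in the PFC and 207 ± 108 in the striatum. It was higher in hippocampus than in striatum in 37 of 42 animals and than in PFC in 30 of 36. Grik5, its partner among the high-affinity subunits, was highest in the PFC (417 ± 148 CPM) and stood at 226 ± 50.7 in the hippocampus and 219.6 ± 64.2 in the striatum. Every one of the 35 animals with both regions had more Grik5 in the PFC than in the striatum, by log2 differences of 0.11 to 1.84, and 35 of 36 had more in the PFC than in the hippocampus. Grik1 was the lowest subunit in each region, at 65.1 ± 27.6, 57.9 ± 34.9 and 69.7 ± 53.6 CPM in hippocampus, PFC and striatum, with no order between them. The leading region stood above the next by more than the larger SD of the pair for Gria4, Grik2, Grik3 and Grik5, and not for the other 5 genes.

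**Figure D1:**
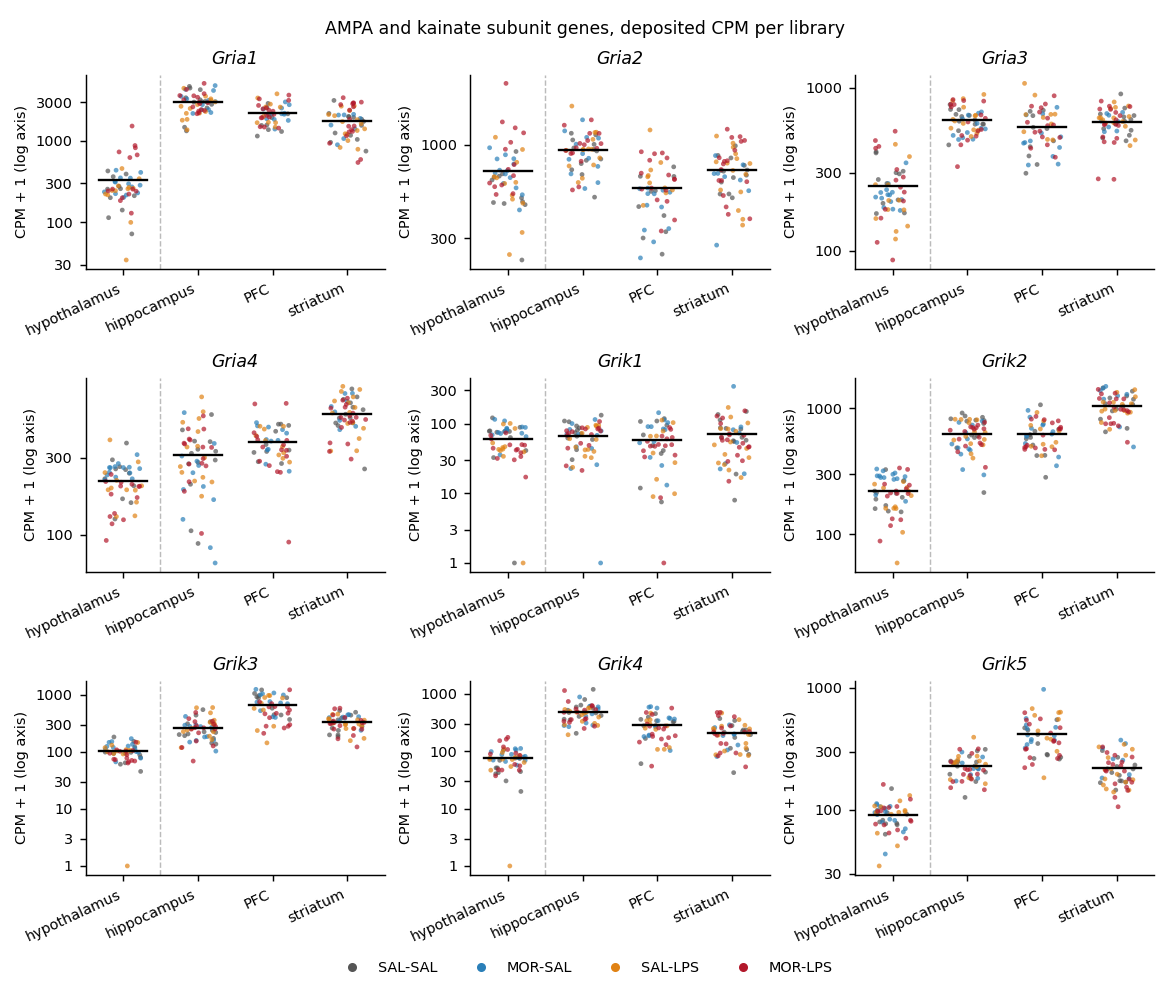
Deposited CPM plus 1 (log axis) of each subunit gene in every library of the 4 regions, coloured by condition, with the mean as a black line and a dashed line that sets the hypothalamus apart because its values behave as counts over exons. Gria1 leads by CPM, not divided by length, in hippocampus, PFC and striatum. Gria4 and Grik2 are highest in the striatum, and Grik3 and Grik5 are highest in the PFC.

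In the hypothalamus the order of the genes by CPM was different. Gria2 led at 716 ± 316 CPM (n = 51), ahead of Gria1 (328 ± 243), Gria3 (248 ± 99.6), Grik2 (220.0 ± 67.2) and Gria4 (216 ± 60.9). The other kainate genes followed, with Grik3 at 101 ± 32.8, Grik5 at 89.9 ± 23.8, Grik4 at 74.6 ± 32.9 and Grik1 at 59.9 ± 27.1 CPM. Relative to its mean, Gria1 varied most there, from 33.5 to 1521 CPM, and Grik5 least.

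Levels between genes are comparable only per length. Per kb of counted sequence, Gria1 stood at 9.43 CPM per kb in the hippocampus, Gria2 at 7.74, Gria3 at 2.27 and Gria4 at 0.828. Gria1 (6.89) also led Gria2 (4.72) in the PFC, whereas in the striatum Gria2 (5.99) stood above Gria1 (5.48). Grik5 was the highest kainate gene on this scale in all 3 of these regions, at 3.62 CPM per kb (hippocampus), 6.68 (PFC) and 3.51 (striatum), and Grik1 the lowest, at 0.165, 0.147 and 0.177. In the hypothalamus, per kb of exon, Gria1 (54.3) and Gria2 (46.0) led and Grik2 (16.6) and Grik5 (17.4) were close.

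As shares of the summed AMPA level per length, Gria2 made up 38.3% ± 7.6 (SD) in the hippocampus, 31.9% ± 7.0 in the PFC, 39.5% ± 7.0 in the striatum and 28.8% ± 5.5 in the hypothalamus. Gria4 took 23.4% in the hypothalamus and 4.3%, 6.9% and 10.6% in hippocampus, PFC and striatum. The kainate genes together held 43.8% ± 9.8 of the summed AMPA and kainate level in the PFC, the largest share, against 25.9% ± 4.9 in the hippocampus, 32.5% ± 5.4 in the striatum and 30.6% ± 5.2 in the hypothalamus. Within the kainate family, Grik5 held 51.7%, 58.2% and 48.6% in hippocampus, PFC and striatum and 26.4% in the hypothalamus. These shares depend on the length used. Divided by exon length in every region, Gria2 would hold 9.3% of the AMPA level in the hippocampus and Gria1 72.8%, so the shares of different genes are a description under 1 reading of what was counted. By exon length Grik4 would lead the kainate genes in the hippocampus (37.1%, Grik5 21.4%) and Grik2 in the striatum (39.1%, Grik5 21.3%). Grik5 would still lead in the PFC (31.9%). The kainate share was highest in the PFC and lowest in the hippocampus by exon length too (33.6% in the PFC, 24.0% in the hippocampus), while the striatum, at 29.9%, then stood below the hypothalamus at 30.6%.

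Between conditions, levels are given as normalised CPM within a region (CPM after TMM scaling), and each log2 fold change is that of the edgeR fit over all genes tested, with adjusted p by Benjamini-Hochberg. The comparisons share groups, so each is given on its own. In bulk nuclei, a lower level through fewer cells of a type and through less RNA per cell cannot be told apart.

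The only comparison in which subunit genes passed the edgeR test was MOR-LPS against MOR-SAL in the hypothalamus, the response to LPS in mice with perinatal morphine. Gria1 rose, and Gria4 and Grik1, which encodes GluK1, fell. These 3 of 9 genes stand beside 6.27% of all 28859 genes called in that comparison, and 7 of the 9 had an unadjusted p under 0.05, as did 20.5% of all genes. Neither group held a library of low depth.

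Gria1 ranged from 198 over a median of 267 to 420.4 normalised CPM in MOR-SAL (n = 14) and from 166 over 265 to 1469 in MOR-LPS (n = 14). The medians were nearly equal, and the rise lay in 6 MOR-LPS libraries above every MOR-SAL library, while 2 were below every one. The fitted log2 fold change was 0.77 ± 0.25 (SE, edgeR, adjusted p = 0.0471). SAL-SAL mice spanned 92.2 to 359 with a median of 256, and SAL-LPS mice 50.6 to 486 with a median of 247.

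Gria4 moved as a whole group. It ran from 207 over 239 to 288 normalised CPM in MOR-SAL and from 88.4 over 186 to 236 in MOR-LPS, so all 14 MOR-LPS libraries were below the MOR-SAL median and 12 were below its lowest library. The log2 fold change was -0.47 ± 0.15 (edgeR, adjusted p = 0.0410). The saline-exposed groups were wider, 139 to 479.7 with a median of 238 in SAL-SAL and 53.9 to 377 with a median of 229 in SAL-LPS.

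Grik1 behaved likewise, with 31.7, 73.9 and 106 normalised CPM as lowest, median and highest in MOR-SAL and 15.1, 45.0 and 66.4 in MOR-LPS. All 14 MOR-LPS libraries lay below the MOR-SAL median, and 3 below its lowest. The log2 fold change was -0.74 ± 0.22 (edgeR, adjusted p = 0.0352). The medians were 74.3 in SAL-SAL and 48.5 in SAL-LPS, each with 1 library of low depth at 0.

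The other 6 genes did not pass the edgeR test, although Gria2 passed with DESeq2 (log2 0.53, adjusted p = 0.0383). With limma-voom Gria4 and Grik1 passed and Gria1 did not (0.48, adjusted p = 0.508). Of 16 alternatives, Gria1 passed in 5, Gria4 in 7 and Grik1 in 10. Gria2 ran from 428 over 660.3 to 884 in MOR-SAL and from 551 over 745 to 2134 in MOR-LPS (log2 0.46 ± 0.18, edgeR, adjusted p = 0.103), with 6 MOR-LPS libraries above the highest MOR-SAL library. For Gria3 the log2 fold change was 0.43 (adjusted p = 0.173), for Grik2 -0.33 (adjusted p = 0.177) and for Grik3 -0.32 (adjusted p = 0.198). Grik4 and Grik5 each stood at 0.15 with adjusted p of 0.729 and 0.666.

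**Figure D2:**
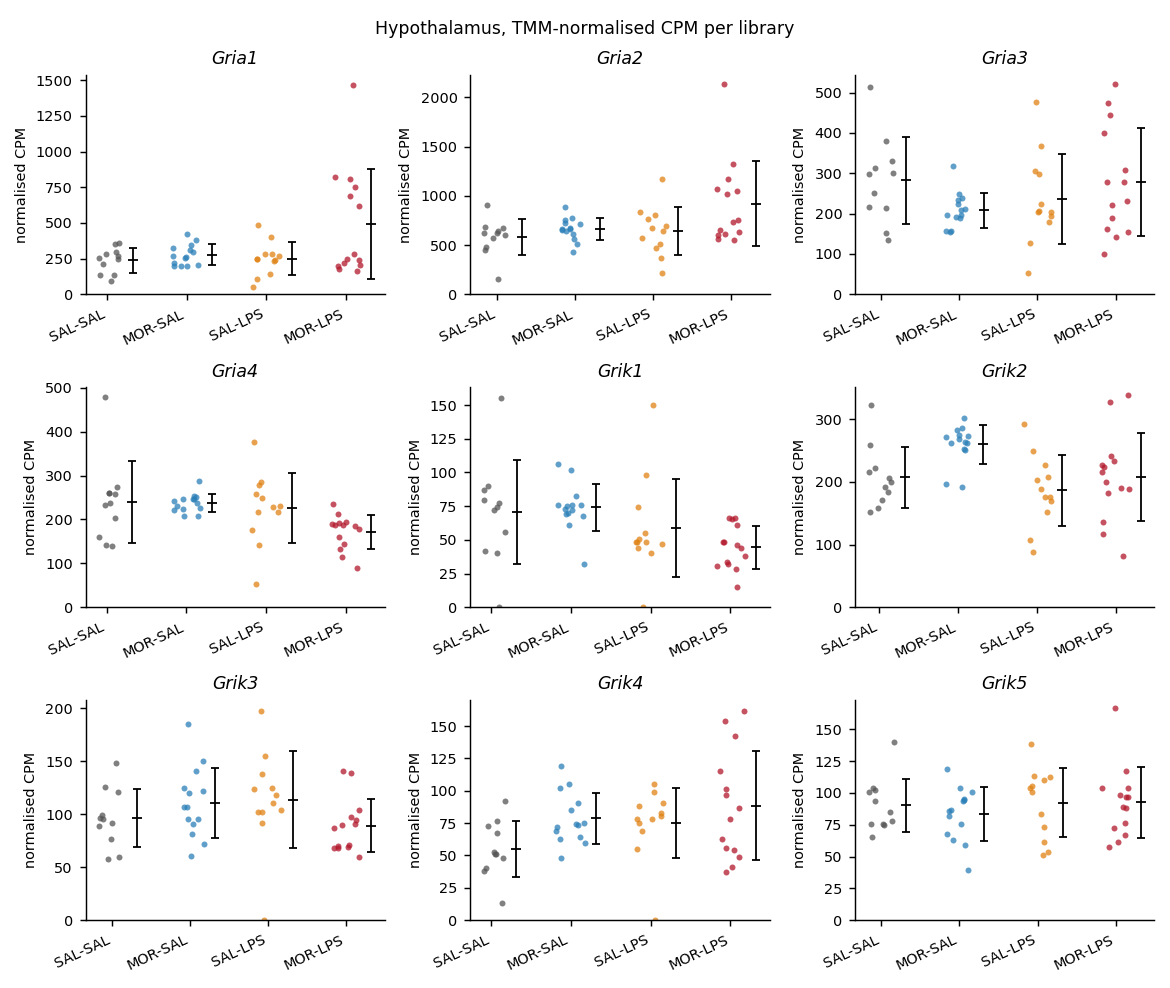
Normalised CPM of the 9 subunit genes in each hypothalamic library by condition, with bars for the mean ± SD. MOR-SAL libraries lie close together for Gria4 and Grik1 and MOR-LPS libraries lie lower, while 6 MOR-LPS libraries of Gria1 lie above the MOR-SAL range.

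These 3 calls were close to the threshold. Leaving out 1 set at a time ended the call of Grik1 for 5 of 17 sets (6, 8, 14, 15 and 16, with log2 values from -0.79 to -0.59), of Gria4 for 9 (6, 7, 8, 13, 14, 15, 16, 17 and 18, from -0.49 to -0.40) and of Gria1 for 10 (3, 6, 8, 9, 10, 11, 12, 14, 16 and 17, from 0.61 to 0.83). The sign was kept each time. With the set as a further term of the fit, Gria1 (0.56, edgeR, adjusted p = 0.232) and Gria4 (-0.48, adjusted p = 0.138) did not pass and Grik1 did.

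Markers of other cells moved with the same comparison. Slc17a7, the vesicular glutamate transporter of cortical and hippocampal neurons, had a median of 39.6 CPM (1.86 to 263) in MOR-LPS and 3.36 (0 to 27.1) in MOR-SAL, against 19.7 in SAL-SAL and 5.65 in SAL-LPS. Of the tissue itself, 6 hypothalamic markers summed to 34.6 CPM (0 to 193) and 79.2 (0 to 142), 3 GABAergic genes to 228 (96.0 to 586) and 375 (275 to 891), and 5 astrocyte genes to 175 (14.6 to 618) and 27.1 (13.2 to 45.1).

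Library by library, Slc17a7 exceeded 100 CPM in 6 of the 14 MOR-LPS libraries, and 5 of these, from sets 6, 8, 14 and 16, held Gria1 at 618 to 1469 normalised CPM. The remaining one, MOR-LPS 16-2, held 176 CPM of Slc17a7 with Gria1 at 222, and MOR-LPS 17-1 held Gria1 at 692 with Slc17a7 at 49.9 CPM. In the 6 MOR-LPS libraries above 100 CPM of Slc17a7, Gria4 ran from 88.4 (6-0, with the most Slc17a7 and Gria1) to 236 (16-0). In the other MOR-LPS libraries Gria4 ran from 144 to 213. Without the 17 hypothalamic libraries low in hypothalamic markers, Gria1 stood at a log2 of 0.41 (edgeR, adjusted p = 0.210), while Gria4 (-0.44, adjusted p = 0.0399) and Grik1 (-0.70, adjusted p = 0.0186) still passed. The part of these cell markers in the 3 calls was otherwise not tested.

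**Figure D3:**
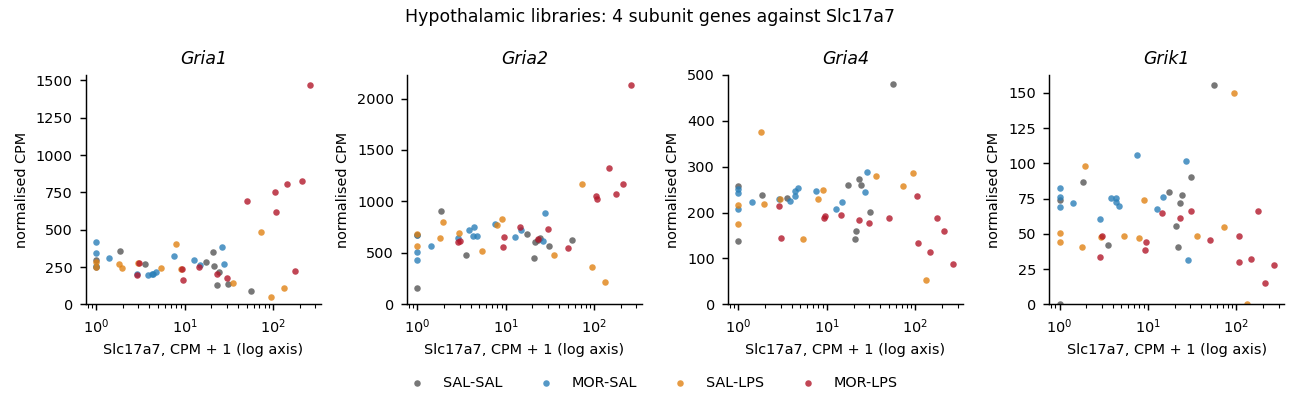
Normalised CPM of Gria1, Gria2, Gria4 and Grik1 against Slc17a7 (CPM plus 1, log axis) in each hypothalamic library, coloured by condition. Of the 6 MOR-LPS libraries with more than 100 CPM of Slc17a7, 5 hold Gria1 at 618 or more.

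The response to LPS was not shown to differ between the exposures for any subunit. In the interaction of the hypothalamus, which is the MOR response minus the SAL response, 0 of 9 genes passed beside 3.8% of all genes, and 2 had an unadjusted p under 0.05, as did 15.6% of all genes. Grik3 came closest, at -0.73 ± 0.23 (edgeR, adjusted p = 0.0536), with the opposite sign (0.23) under limma at a pseudocount of 0.1. Its normalised CPM had a median of 95.6 in SAL-SAL (57.8 to 149), 114 in SAL-LPS (0 to 198), 107 in MOR-SAL (60.5 to 185) and 88.2 in MOR-LPS (59.9 to 140.4). The 0 belongs to the library with 7673 counts, and without the 3 low-depth libraries the value was -0.89 (edgeR, adjusted p = 0.0106). For Gria1, Gria4 and Grik1 the interaction was 0.57, -0.44 and -0.55, with adjusted p of 0.517, 0.324 and 0.467.

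After LPS, 0 of 9 subunit genes passed the edgeR test between MOR-LPS and SAL-LPS hypothalami, beside 1.03% of all genes, with 5 of 9 at an unadjusted p under 0.05, as were 13.9% of all genes. With limma-voom Gria4 (log2 -0.54, adjusted p = 0.0351) and Grik3 (-0.59, adjusted p = 0.0488) passed, and with DESeq2 0 of 9. The values nearest to the threshold were Grik3 at -0.50 ± 0.16 (edgeR, adjusted p = 0.0890), Gria4 at -0.46 ± 0.15 (adjusted p = 0.110) and Gria1 at 0.80 ± 0.27 (adjusted p = 0.113). The sign of Grik3 turned with limma on log2 CPM (0.25 and 0.54 at pseudocounts of 1 and 0.1). Grik3 was at 0 in SAL-LPS library 1-4, which had 7673 counts and whose part was not tested. For Grik3, 12 of 14 MOR-LPS libraries lay below the SAL-LPS median. At baseline, MOR-SAL against SAL-SAL gave 0 of 9 beside 1.44% of all genes, and 2 at an unadjusted p under 0.05, as were 17.3% of all genes. Grik4 stood at 0.50 ± 0.20 (edgeR, adjusted p = 0.155), with a median of 73.7 normalised CPM (47.7 to 119) in MOR-SAL and 51.1 (13.0 to 92.0) in SAL-SAL, and Gria3 at -0.44 ± 0.20 (adjusted p = 0.230), with medians of 202 and 297. In saline-exposed mice LPS gave 0 of 9 beside 0.246% of all genes, and 2 at an unadjusted p under 0.05, as were 14.0% of all genes, with Grik4 at 0.60 ± 0.21 (edgeR, adjusted p = 0.135) and Grik3 at 0.41 ± 0.17 (adjusted p = 0.232), whose sign turned with limma as well (-0.34 and -0.63), as did that of Grik4 at the lower pseudocount (-0.25).

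In the hippocampus 0 of 9 subunit genes passed in any comparison of conditions, and none had an unadjusted p under 0.05, as 10.3% to 17.5% of all genes did. The share of all genes called was 0% at baseline, 2.73% for MOR-LPS against SAL-LPS, 2.55% for SAL-LPS against SAL-SAL, 0.467% for MOR-LPS against MOR-SAL and 2.35% for the interaction. Log2 fold changes of the subunits lay between -0.41 (Grik3, MOR-LPS against SAL-LPS) and 0.40 (Gria4, MOR-LPS against MOR-SAL), with standard errors of 0.12 to 0.28 outside the interaction. Gria1 medians were 3172, 2590.2, 3161 and 2804 normalised CPM in SAL-SAL, SAL-LPS, MOR-SAL and MOR-LPS, and its highest library stood at 5029, 6008, 5606 and 4689. These groups overlapped over most of their ranges.

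In the PFC 0 of 9 genes passed as well, beside 0% (baseline), 0.0046% (MOR-LPS against SAL-LPS), 0% (SAL-LPS against SAL-SAL), 0.0184% (MOR-LPS against MOR-SAL) and 1.78% (interaction) of 21729 genes. In MOR-LPS against MOR-SAL 3 of 9 genes had an unadjusted p under 0.05, as did 13.2% of all genes. Gria2 ran from 307 over 440.4 to 599 normalised CPM in MOR-SAL and from 368 over 586 to 886 in MOR-LPS (log2 0.48, edgeR, adjusted p = 0.116), and 13 of 16 MOR-LPS libraries were above the MOR-SAL median. Grik3 ran from 382 over 767 to 1541 in MOR-SAL and from 185 over 458 to 1221 in MOR-LPS (log2 -0.74, adjusted p = 0.167), with 14 of 16 below the MOR-SAL median. Grik5 stood at -0.44 (adjusted p = 0.337). The median over the 4 AMPA genes was 0.11 and over the 5 kainate genes -0.54, beside 0.06 over all genes.

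In the striatum 0 of 9 genes passed in any comparison. The background was 0% of 23426 genes at baseline, 0% for MOR-LPS against SAL-LPS, 0.0128% for SAL-LPS against SAL-SAL, 1.39% for MOR-LPS against MOR-SAL and 0.00854% for the interaction. All 9 values were above 0 for MOR-SAL against SAL-SAL (median 0.27, all genes -0.07) and below 0 in the interaction (median -0.43, all genes 0.12), but with library totals as the only scaling 7 of 9 were above 0 and 6 of 9 below 0, with medians of 0.08 and -0.18 beside -0.24 and 0.38 over all genes. Grik5 had the largest interaction, at -0.67 (edgeR, adjusted p = 0.267). Its medians were 181 normalised CPM in SAL-SAL, 275 in MOR-SAL, 188 in SAL-LPS and 204 in MOR-LPS, and 14 of 18 MOR-LPS libraries were below the MOR-SAL median. The MOR-SAL group of the striatum held 8 libraries, the fewest of any group.

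**Figure D4:**
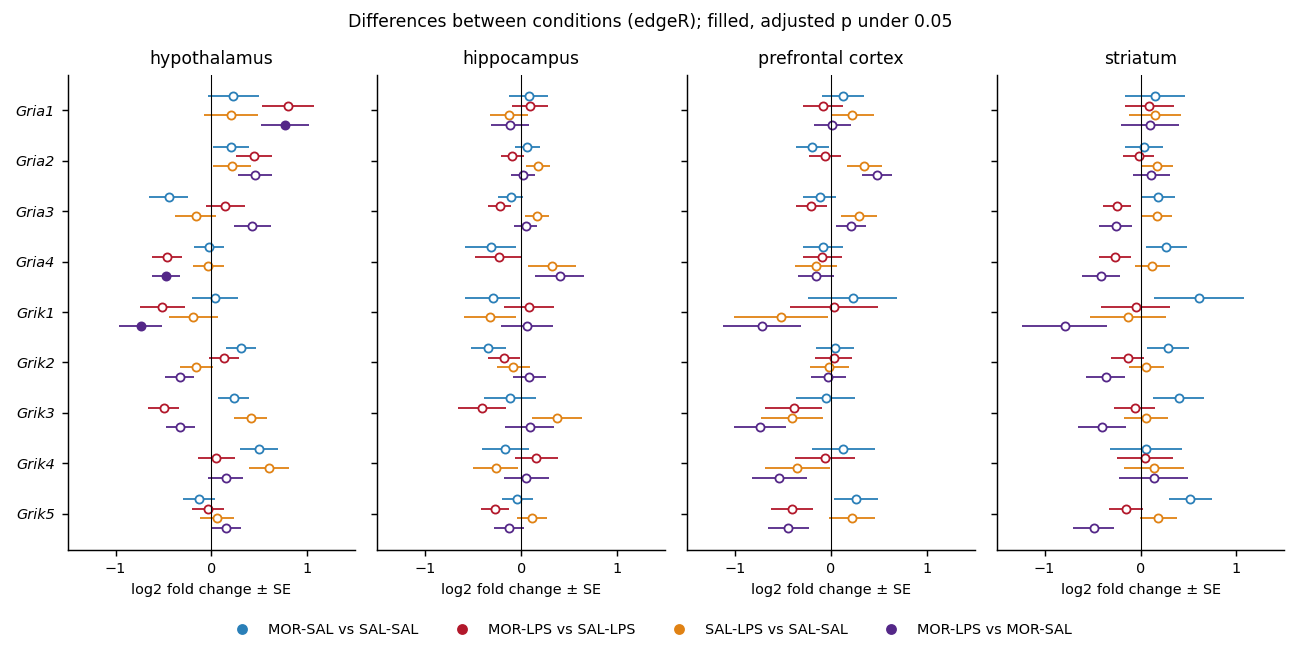
Log2 fold change ± SE of each subunit gene in each comparison of conditions and region, from the edgeR fits, with filled points for an adjusted p under 0.05. The 3 filled points are Gria1, Gria4 and Grik1 in the hypothalamus for MOR-LPS against MOR-SAL.

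The balance of the families is given without a test. For MOR-LPS against MOR-SAL, the kainate share of the summed level per length was 26.8% ± 6.7 against 32.9% ± 3.9 in the hypothalamus (-6.13 points), 39.1% ± 8.7 against 49.1% ± 8.7 in the PFC (-10.0 points) and 31.1% ± 6.0 against 36.9% ± 4.9 in the striatum (-5.81 points), and it differed by -0.35 points in the hippocampus. In the hypothalamus the MOR-LPS libraries with more than 100 CPM of Slc17a7 held shares of 15.3% to 28.7%, and the other MOR-LPS libraries 26.5% to 38.0%. Without the libraries low in hypothalamic markers the group means were 29.7% and 33.7%. Over the 4 comparisons of conditions, the difference in this share was lowest at -6.13 points (hypothalamus), -2.99 (hippocampus), -10.0 (PFC) and -5.81 (striatum) and highest at 2.23, 0.38, 2.73 and 4.58, the last being striatal MOR-SAL against SAL-SAL. The Gria2 share of the AMPA level differed most in the PFC, at 34.2% ± 6.9 in MOR-LPS and 27.3% ± 3.8 in MOR-SAL.

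**Figure D5:**
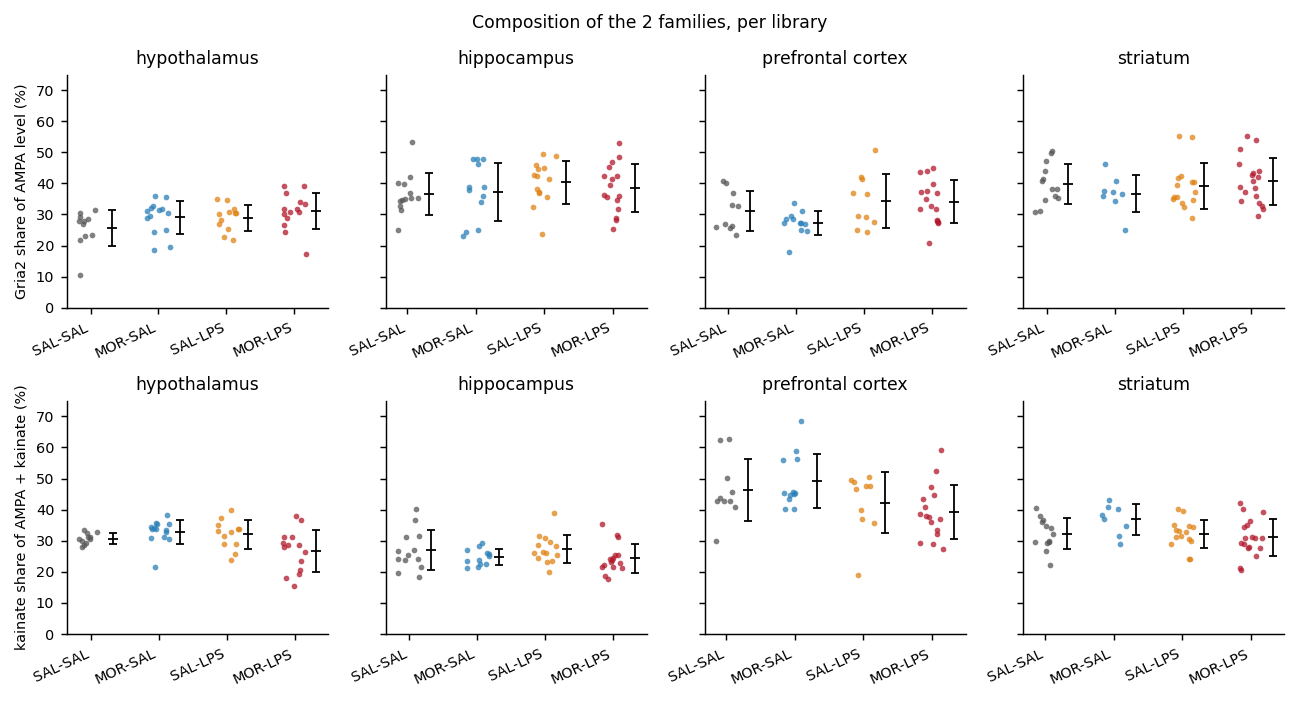
Share of Gria2 in the summed AMPA level (upper row, percent) and of the 5 kainate genes in the summed AMPA and kainate level (lower row, percent), both per counted kb, in each library by region and condition, with bars for the mean ± SD. The kainate share of MOR-LPS lies below that of MOR-SAL in hypothalamus, PFC and striatum, with overlapping libraries, and is highest in the PFC.

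Males and females differed in 0 of 9 subunit genes in every region, beside 3.45% (hypothalamus), 2.51% (hippocampus), 0.709% (PFC) and 0.841% (striatum) of all genes. Grik3 in the hypothalamus (male minus female 0.34 ± 0.11, edgeR, adjusted p = 0.0814) and Gria3 in the hippocampus (0.24, adjusted p = 0.117) were nearest to the threshold. All but 1 of the 18 sets held a single sex, so the sexes were compared mostly between different sets. With voom and a correlation within sets, 0 of 9 subunit genes passed for sex in every region as well.

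Receptors of both families work with partner proteins, and 30 genes were followed for these. They are 16 auxiliary subunits and partners of AMPA receptors (Cacng2 to Cacng5, Cacng7, Cacng8, Cnih2, Cnih3, Shisa6, Shisa7, Shisa9, Gsg1l, Frrs1l, Nptx1, Nptx2 and Nptxr), 4 of kainate receptors (Neto1, Neto2, C1ql2 and C1ql3), 7 scaffold and trafficking proteins (Grip1, Grip2, Pick1, Nsf, Dlg1, Dlg3 and Dlg4) and the 3 genes of the editing enzyme family (Adar, Adarb1 and Adarb2). All 30 were tested in each region.

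For MOR-LPS against MOR-SAL in the hypothalamus, 5 of the 30 rose and 0 fell, beside 4.1% and 2.17% of all genes. Shisa6, which encodes an AMPA receptor partner that slows desensitisation, had a median of 39.5 normalised CPM (10.6 to 193) in MOR-LPS and 24.1 (14.5 to 51.8) in MOR-SAL (log2 1.14 ± 0.31, edgeR, adjusted p = 0.0181). The scaffold gene Dlg3 rose from a median of 39.0 to 66.2 (log2 0.64 ± 0.18, edgeR, adjusted p = 0.0241). C1ql2, a synaptic organiser of kainate receptors, had medians of 3.87 and 4.60 with a highest MOR-LPS library at 85.4 (log2 2.13 ± 0.59, edgeR, adjusted p = 0.0205). Nptx1 (log2 0.91, edgeR, adjusted p = 0.0383) and Cnih2 (0.87, adjusted p = 0.0267), named because so few were called, were the others. Nptx1 lost its call without set 6, 8, 14, 15 or 16, and Cnih2 without set 6, 8 or 14. The marker values given above for this comparison (Slc17a7, astrocyte, GABAergic and hypothalamic genes) stand beside these 5 as well, and their part was otherwise not tested. Without the libraries low in hypothalamic markers Shisa6 passed (0.95, edgeR, adjusted p = 0.0450), whereas Dlg3 (0.56, adjusted p = 0.0562) and C1ql2 (1.59, adjusted p = 0.0739) did not. No gene of the editing list passed here. Leaving out a set ended the call of Shisa6 for sets 6 (0.97) and 14 (1.05), of Dlg3 for 6 (0.51) and 16 (0.67) and of C1ql2 for 6 (1.98) and 15 (1.55).

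The other hypothalamic comparisons held 1 or 2 calls each. MOR-SAL against SAL-SAL gave 0 up and 2 down of 30, beside 0.27% and 1.17% of all genes. Adarb1, the gene of the enzyme that edits Gria2, had a median of 181 normalised CPM (136 to 315) in MOR-SAL and 293 (108 to 1462) in SAL-SAL (log2 -1.23 ± 0.27, edgeR, adjusted p = 0.00992), and Cacng5 stood at -1.29 ± 0.33 (adjusted p = 0.0314). The 3 SAL-SAL libraries with the most Adarb1 (10-1, 10-3 and 5-3) were also those with the most thalamic markers, which summed to 2333, 1655 and 1484 CPM there. These 3 and 4-3 were the SAL-SAL libraries low in hypothalamic markers, and without the libraries low in them Adarb1 stood at -0.43 (edgeR, adjusted p = 0.454) and Cacng5 at -0.39 (adjusted p = 0.613). The SAL-SAL library with the most Cacng5 (4-3) was that with 160755 counts. Without set 10 Adarb1 stood at -0.45 (adjusted p = 0.361) and Cacng5 at -1.05 (adjusted p = 0.147). Cacng5 also lost its call without set 7, 12, 15 or 18 (-1.26 to -1.15). For SAL-LPS against SAL-SAL, Adarb2 fell (log2 -1.16 ± 0.27, edgeR, adjusted p = 0.0407), which stood at -0.23 (adjusted p = 0.884) without the libraries low in hypothalamic markers (5 of 12 in SAL-LPS and 4 of 11 in SAL-SAL) and at -0.52 (adjusted p = 0.427) without set 10. The summed thalamic markers ran from 83.0 to 2333 CPM in SAL-SAL and from 94.4 to 413 CPM in SAL-LPS. Adarb2 also lost its call, at -1.20 to -1.13, without set 3, 5, 7, 9, 13, 14 or 15. For MOR-LPS against SAL-LPS, Nptxr, which encodes the neuronal pentraxin receptor, rose by a log2 of 0.90 ± 0.21 (edgeR, adjusted p = 0.0346), from a median of 62.1 to 124, and lost its call without set 1, 3, 4, 6, 8, 9, 14, 16 or 17 (0.83 to 0.95). It passed in 7 of 15 alternatives, and 1 SAL-LPS library was at 0. The median of Slc17a7, given above, was also higher in MOR-LPS than in SAL-LPS, and its part in the Nptxr call was not tested.

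In the interaction of the hypothalamus Shisa6 (2.07 ± 0.46, edgeR, adjusted p = 0.00729) and Adarb2 (1.36 ± 0.36, adjusted p = 0.0195) passed, 2 of 30 beside 3.8% of all genes. The highest library of either gene was a SAL-SAL library, at 202 normalised CPM for Shisa6 and 604 for Adarb2. Without set 10 the values were 1.42 (edgeR, adjusted p = 0.0874) and 0.66 (adjusted p = 0.338), and without the libraries low in hypothalamic markers 1.31 (adjusted p = 0.123) and 0.20 (adjusted p = 0.902). Between the sexes, Nptx1 (log2 1.04 ± 0.22, edgeR, adjusted p = 0.00365), Nptxr (0.54 ± 0.15, adjusted p = 0.0275) and C1ql2 (1.56 ± 0.47, adjusted p = 0.0470) were higher in males, of which Nptx1 kept its call without any 1 set, Nptxr lost it for sets 1, 14, 15 and 17 (0.46 to 0.51) and C1ql2 for 13 of 17 sets (1.41 to 1.62).

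In the hippocampus, 2 of 30 genes rose and 1 fell for SAL-LPS against SAL-SAL, beside 1.33% and 1.22% of all genes. Adar, which encodes an interferon-inducible editing enzyme, rose from a median of 128 to 173 normalised CPM (log2 0.49 ± 0.13, edgeR, adjusted p = 0.0286), Dlg1 rose from 136 to 189 (0.61 ± 0.18, adjusted p = 0.0497) and Frrs1l, needed for the assembly of AMPA receptors, fell from 107 to 76.2 (-0.49 ± 0.14, adjusted p = 0.0443). Libraries low in hippocampal markers numbered 4 in SAL-LPS and 1 in SAL-SAL, and without them none of the 3 passed (Adar 0.50, edgeR, adjusted p = 0.0592, Dlg1 0.43, adjusted p = 0.198, Frrs1l -0.53, adjusted p = 0.075). Adar lost its call without set 1, 3, 4, 10 or 11 (0.45 to 0.49), Frrs1l for 11 of 18 sets (-0.55 to -0.41) and Dlg1 for 14 of 18 (0.41 to 0.69). Between the sexes of the hippocampus Nptxr (0.67 ± 0.14, edgeR, adjusted p = 0.0106) and Dlg3 (0.34 ± 0.09, adjusted p = 0.0334) were higher and Pick1 lower (-0.44 ± 0.12, adjusted p = 0.0356) in males. The call of Nptxr held without any 1 set, that of Dlg3 was lost for 10 of 18 (0.29 to 0.34) and that of Pick1 for 8 (-0.45 to -0.37).

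In the striatum the only call was Dlg4, the gene of the scaffold PSD-95, which fell for MOR-LPS against MOR-SAL from a median of 115 (80.4 to 186) to 80.5 (54.0 to 111) normalised CPM (log2 -0.62 ± 0.15, edgeR, adjusted p = 0.0269). It lost its call without set 12, 14, 15 or 16 (-0.61 to -0.52). Libraries low in striatal markers numbered 3 in MOR-LPS and 0 in MOR-SAL, and without them Dlg4 stood at -0.61 (edgeR, adjusted p = 0.0510). In the PFC 0 of 30 passed in every comparison.

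For each subunit the genes whose group means of log2(CPM + 1) followed it most closely were found among 11274 genes over the 16 groups of region and condition. Pearson correlations across these groups are a description, since the points differ mostly by region and the hypothalamic values behave as counts over exons. Gria1 was closest to Prkca (0.996) and Msra (0.994), Gria2 to Mknk1 (0.967) and 4833420G17Rik (0.931), Gria3 to Garem (0.988) and Ptprd (0.986), and Gria4 to Cep126 (0.973) and Ptchd1 (0.971). Among kainate genes, Grik1 was closest to Zfp454 (0.861) and Crkl (0.831), Grik2 to Csmd3 (0.995) and Clvs1 (0.993), Grik3 to Sema5b (0.980) and Fam124a (0.978), Grik4 to Ak5 (0.990) and Ncald (0.989), and Grik5 to Lrrc4b (0.981) and Mark2 (0.975). Over the 12 groups outside the hypothalamus, 3 of these 18 genes were again among the closest 2, namely 4833420G17Rik for Gria2 (0.983), Csmd3 for Grik2 (0.990) and Ncald for Grik4 (0.988). Among the subunits themselves over these 12 groups, Gria1 went with Grik4 (0.93) and against Gria4 (-0.93), Gria2 went against Grik3 (-0.93), Gria4 with Grik2 (0.88) and against Grik4 (-0.87), and Grik3 with Grik5 (0.87).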

How the data were processed

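Nuclear RNA of NeuN+ nuclei was read with a modified Smart-seq3 protocol. Per the labels, the authors trimmed reads with Trim Galore 0.6.7, aligned them to mm10 with STAR 2.7.10a, counted with HTSeq 0.12.4 and used DESeq2 1.40.2. They deposited raw counts per gene and CPM (counts scaled to a common library total) for each region. The deposited CPM equalled CPM recomputed from the counts within 2.9e-11.

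Counts of each region were fitted with edgeR 4.0.16 (R 4.3.3, limma 3.58.1), TMM scaling and the quasi-likelihood test, on genes with a total above 10, with condition and sex as terms and Benjamini-Hochberg adjustment over all genes tested. The threshold was an adjusted p of 0.05. The procedure was tested on simulated data. Normalised CPM is CPM after TMM scaling. DESeq2 1.42.0, voom with a correlation within sets, limma on log2(CPM + 1) and log2(CPM + 0.1), other filters and scalings, single sexes, and fits without doubted libraries or without each set were alternatives, of which some were added after the data were seen. Python 3.11.15 with pandas 2.3.3, numpy 2.4.6 and matplotlib 3.10.9 made summaries and plots.

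The plan was to divide levels by exon length. Since hippocampal, PFC and striatal counts behave as counts over gene spans, the unshared span was used there. Gene models were GENCODE vM21, and the authors' annotation release differs. Shares of families are given without a test. The first number of the replicate label (18 sets) was used for a block, for leaving out sets and for the voom correlation. The labels do not say what it marks. Each of the 71 replicate labels was read as 1 animal. Per the study's methods exposure was assigned to dams, and the litter of an animal was not used here, so p-values measure the spread between animals. Each set held 1 exposure, so the block could be fitted only for the LPS comparisons and the interaction. Sex was left out of the block fits of PFC and striatum.

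Subunit genes and partner lists were chosen with earlier results of these data known. All 9 subunits were named, of the partner lists up to 3 called genes with the smallest adjusted p per comparison, and the 2 genes most like each subunit. For MOR-LPS against MOR-SAL in the hypothalamus all 5 called partner genes were named. Counting limits cover counting error only. Within each region, leaving out libraries of low depth, no 2 libraries agreed within sampling noise. In the PFC, however, 2 pairs were closer than the rest. Their median squared difference over genes, relative to sampling noise, was 2.63 (SAL-SAL 3-0 and 1-3) and 4.68 (MOR-SAL 16-3 and 15-2). The next pair stood at 16.4. An alternative fit left out 1 library of each close pair.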

Additional observations from a re-analysis of the deposited data

Results flagged for a closer look

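The 9 subunit genes were examined in the 3 groups of 4 to 10 libraries, 27 combinations in all, of which 2 held a library far from the others. Chance alone gives about 1 in 20. Both were in the same group. In the striatum of MOR-SAL mice, library 15-0 held Grik1 at 496.7 normalised CPM, against 19.3 to 91.4 in the other 7. Its striatal markers summed to 356 CPM, below the 621 to 2678 of the others, and it had the lowest total count of the striatum, 5954700. There, library 17-2 held Grik3 at 223.6 normalised CPM, against 413 to 508 in the others. Its thalamic markers summed to 2123 CPM, below the 2521 to 4471 of the others, and its glutamatergic markers to 81.5 CPM, above their 0.939 to 55.9, and its GABAergic markers to 713.7 CPM, above their 238 to 611. The part of these markers was not tested.

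The interaction term of the edgeR fit, the LPS response of morphine-exposed minus that of saline-exposed mice, passed in the hypothalamus for Shisa6 (log2 difference 2.07) and Adarb2 (1.36). Both calls ended without the animals numbered 10, where the values were 1.42 and 0.66. Without the libraries low in hypothalamic markers they were 1.31 (edgeR, adjusted p = 0.123) and 0.20 (adjusted p = 0.902), also no longer called, and of 16 alternatives 9 kept the call of Shisa6 and 8 that of Adarb2. Of the SAL-SAL libraries, 10-1 and 10-3 had the highest sums of thalamic markers, 2333 and 1655 CPM, whose part was not tested.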

How the results depend on the processing

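For MOR-LPS against MOR-SAL in the hypothalamus, the count of 3 subunit genes became 0 with edgeR's filterByExpr filter, in females only, in males only, without libraries against the labelled sex and with limma at either pseudocount, and lay between 0 and 3 without single sets. Subunit genes called elsewhere numbered 1 (no sex term) and 2 (voom) for MOR-LPS against SAL-LPS, and 1 for the interaction and for sex without low-depth libraries and with bias-adjusted quasi-likelihood, in the hypothalamus. Without single sets the latter pair lay between 0 and 1.

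Of partner genes in the hypothalamus, 0 (libraries low in own markers left out), 4 (DESeq2) and 0 (voom) passed in place of 2 for MOR-SAL against SAL-SAL, 0 (filterByExpr, voom) in place of 1 for MOR-LPS against SAL-LPS, and 0, 0, 2 and 0 (filterByExpr, low markers, DESeq2, voom) in place of 1 for SAL-LPS against SAL-SAL. They were 3 (low markers), 1 (voom) and 7 (DESeq2) in place of 5 for MOR-LPS against MOR-SAL, 1, 0 and 0 (filterByExpr, low markers, voom) in place of 2 for the interaction, and 1 (filterByExpr) to 4 (low markers) in place of 3 for sex. In the hippocampus they were 1 (voom) in place of 0 for MOR-LPS against SAL-LPS, 0, 0, 1 and 1 (filterByExpr, low markers, DESeq2, voom) in place of 3 for SAL-LPS against SAL-SAL, 1 (DESeq2) in place of 0 for MOR-LPS against MOR-SAL, 1 (low depth) in place of 0 for the interaction and 1 (filterByExpr, voom) to 4 (low depth) in place of 3 for sex. In the striatum they were 0, 2 and 0 (low markers, DESeq2, voom) in place of 1 for MOR-LPS against MOR-SAL.

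In the hypothalamus signs turned for Grik1, MOR-LPS against SAL-LPS (0.074 in females, 0.16 and 0.43 with limma at pseudocounts of 1 and 0.1), and with limma for Grik3 in MOR-LPS against SAL-LPS (0.25 and 0.54), SAL-LPS against SAL-SAL (-0.34 and -0.63), the interaction (0.23 at 0.1) and sex (-0.067 and -0.22), and for Grik4 in SAL-LPS against SAL-SAL (-0.25 at 0.1) and sex (-0.13 at 0.1). Counts of Grik1, Grik3 and Grik4 were 0 in SAL-LPS library 1-4, which had 7673 counts, and Grik1 was also at 0 in SAL-SAL library 4-3. The part of these libraries in the turned signs was not tested. Over all genes, 1809 called for MOR-LPS against MOR-SAL in the hypothalamus became 170 to 2867 over the alternatives. Library totals as the only scaling moved the median of all genes by over 0.1, to -0.24 for MOR-SAL against SAL-SAL and 0.38 for the interaction in the striatum, where 198 of 236 called genes were higher. Depth limits the hypothalamic libraries with 7673 and 160755 counts most.

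With the first number of the replicate label as a replicate block, 1 of the 3 subunit calls passed, Grik1 (-0.80, edgeR, adjusted p = 0.0352), with Gria4 at -0.48 (adjusted p = 0.138) and Gria1 at 0.56 (adjusted p = 0.232), and none of the 12 partner gene calls in comparisons where the block could be fitted did. Over all genes 362 passed in place of 1809. Deviations from group means were correlated between animals of different conditions, and pairs of the same condition were left out. The mean correlation was 0.00993, 0.0175, 0.0284 and 0.0622 between animals of a set in hypothalamus, hippocampus, PFC and striatum. Between other animals it was -0.000275, 0.00168, 0.00307 and -0.00106. The main fits treat the samples as sharing only a number, which these means do not settle for animals of the same condition.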
